A study of Mus musculus with 44 samples.

Results

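Smarcc2 encodes BAF170, a scaffold subunit of the BAF complex. By the rank rule below, it held all autosomal sites with a summit in every Smarcc2 add-back library and in no matched library without one. Some other rules gave 1 to 3 such sites outside the gene. Whether this signal came from construct DNA or from the chromosomal gene could not be told. The gene spans chr10:128459182-128490591 on mm10 (plus strand), and it was examined together with its flanks, chr10:128358000-128592000. It is 1 of 20661 autosomal protein-coding genes in the annotation. It held 34 of the 468496 sites built from all peak lists, and the flanks held another 161. The gene was chosen by the rank, fold, width and edges of the peaks there, which differ between genotypes and ages, so the genotype and age differences below are a description and carry no test. Only the responses to KCl and to FHT1015, which did not enter that choice, were tested.

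ATAC-seq, in which a transposase cuts and tags open DNA, was run on primary cortical neurons of E16.5 mouse embryos. All wells were silenced overnight with 1 µM tetrodotoxin and 100 µM D-AP5 and received 200 U/mL DNase, and 75000 nuclei went into each library. The DIV18 experiment (18 days in vitro) had 20 libraries from neurons with CRISPR guide RNAs: a non-targeting guide, a Smarcc2 knockout with empty vector, and knockouts given back Smarcc2 as wild type, S586A or S586E. Each of these 5 genotypes was left unstimulated or depolarized with 50 mM KCl for 30 min. The 24 DIV7 libraries carried no Smarcc2 construct. Of them, 16 were from neurons labelled wild type, with or without KCl. These were kept for 10 or 30 min in 0.1% DMSO or in 100 nM FHT1015 (which blocks the ATPase of BAF). The other 8 were neurons with a non-targeting guide or an Arid2 knockout, with or without 30 min of KCl. Every group had 2 libraries. Per the labels every embryo's cortex was 1 biological replicate, but no library is tied to an embryo, so the spread between libraries may in part be technical. The labels used here give neither the form of the add-back construct nor the positions of the guides.

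The BAF complex uses ATP to move nucleosomes, and BAF170 together with BAF155 (Smarcc1) forms the core on which its other subunits assemble. In neurons the complex exchanges several subunits as progenitors become postmitotic. S586A puts alanine, which takes no phosphate, in place of a serine. S586E puts glutamate there, whose negative charge serves as a stand-in for phosphorylation. A complementary DNA made for expression lacks introns, whereas the chromosomal gene has them, and a transposase also cuts DNA that is not packed in the gene's own chromatin. Exon positions, the genome sequence and the protein sequence were not used here, so whether the intervals below coincide with exons was not tested. Construct DNA and the chromosomal gene cannot be told apart in these lists.

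The sequence just before the gene start is shown because it holds the promoter summit that was found in libraries of every genotype. It covers chr10:128458986-128459181 (plus strand, RefSeq, GRCm38.p6), with 2 identical copies of a stretch of 30 bases in capitals, at 128459083 to 128459112 and 128459137 to 128459166.

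Smarcc2 promoter: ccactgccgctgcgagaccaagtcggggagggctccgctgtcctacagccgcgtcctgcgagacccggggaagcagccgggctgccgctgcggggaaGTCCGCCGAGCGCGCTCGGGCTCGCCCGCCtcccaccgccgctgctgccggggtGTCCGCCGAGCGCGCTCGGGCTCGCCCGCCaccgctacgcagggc

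These 196 bases are 78.1% G or C and hold 30 CpG. Over the full promoter window of 300 bases, the G and C content was 81%, against a median of 52.7% over 32817 promoters, and 99.3% of the promoters had a lower one. Of 5 motifs searched on both strands, a CTCF-like motif had 1 match, at 128459184 to 128459195, and GGGCGG (a GC box) had 1, at 128459261 to 128459266. Of all promoters, 3.43% held the first and 35.6% the second. TGANTCA (AP-1, in 7.81% of promoters), TGACGTCA (CRE, in 1.79%) and an NRF1-like motif (in 4.59%) had no match in this window. The letters of these motifs do not overlap at the matches found.

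The lists held 178672 to 389907 autosomal summits each, 233687 to 347568 in the add-back libraries and 240264 to 341812 in the 8 other DIV18 libraries. Values are the authors' fold enrichment at a summit over 1 background level per library. A library held a site when a summit within its best 178672 by −log10 p lay there, and the rank score was the log2 of 178672 divided by that rank, so that 1 unit means a rank divided by 2. Read depth was not given. The steps between the fold values put the background at 0.942 reads of pileup in the unstimulated S586E library of replicate 1, at 1.77 to 2.50 in the 11 other add-back libraries and at 1.51 to 3.68 in the 8 other DIV18 libraries. That S586E library also had the shortest list of the 12 and the lowest fold at 13 of the 13 sites described below. Neuronal markers had sites at their gene ends in all 44 libraries for 7 of 7 genes. Microglial markers did for 0 of 5, with a summed rank score of 0 to 1.66. Astrocyte markers did for 2 of 5, oligodendrocyte markers for 1 of 5 and vascular markers for 1 of 5. Their summed scores ran from 9.33 to 11.96 in the add-back libraries and from 8.65 to 10.3 in the 8 others for astrocytes, from 2.15 to 3.97 and from 2.75 to 3.18 for oligodendrocytes, and from 2.50 to 4.68 and from 1.65 to 4.94 for vascular cells. The part of these cells in the results below was not tested.

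At the sites of the gene body, the add-back libraries stood apart from all others. Of the 34 sites, 13 were held by all 12 add-back libraries and by 0 of the 8 other DIV18 libraries. Over all 468496 sites the same 13 were the only ones with this pattern, which is 0.00484% of the 268562 sites held by at least 2 DIV18 libraries. None of the 161 flank sites had it, none of the 24 DIV7 libraries held any of the 13, and the reverse pattern was found at 0 sites. Leaving out any 1 of the 20 libraries left 13 to 15 such sites in the gene. Without the knockout library with vector, unstimulated replicate 2 or depolarized replicate 1, 3 sites outside the gene had it as well, and in 6 of these 20 cases at least 1 did. With no limit on rank, 7 sites in the gene and 1 outside had the pattern. With a −log10 q of at least 5 the counts were 14 and 3, and with intervals over the site centre 11 and 2.

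**Figure D1:**
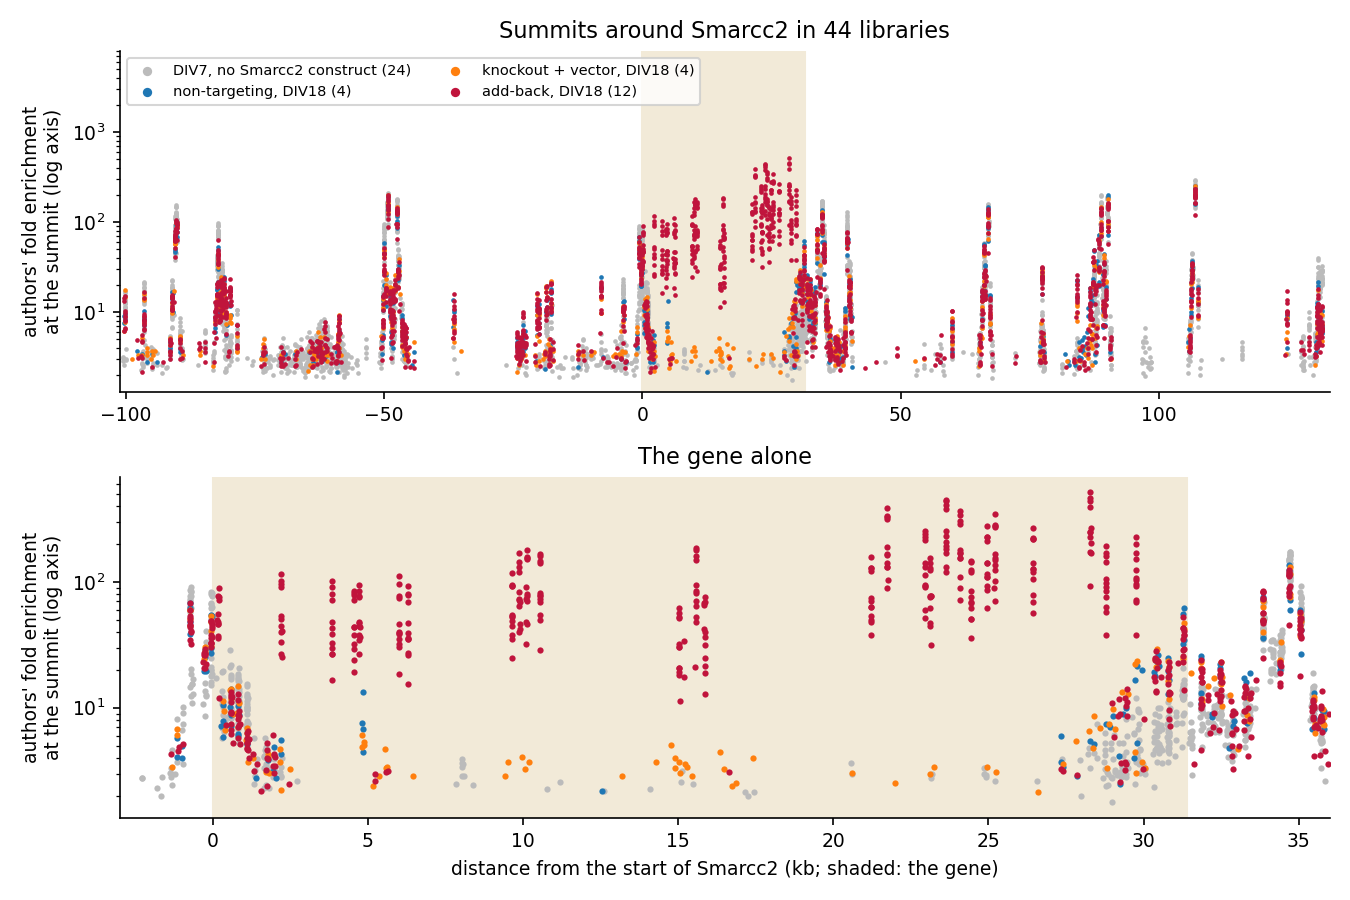
Authors' fold enrichment at each summit (log axis) against the distance from the start of Smarcc2 in kb, for 44 libraries, over the locus (top) and over the gene alone (bottom); colours give the library class, and shading the gene. Inside the gene the 12 add-back libraries form columns of points at 16.5 to 447 at the 13 sites held by them alone, while in the flanks all classes overlap.

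The strongest of the 13 sites lay 23.6 kb into the gene, at chr10:128482611-128483012. Its folds were 233 and 168 in the unstimulated and 252 and 192 in the depolarized wild-type add-back libraries. With S586A they were 376 and 404 unstimulated and 447 and 436 depolarized, and with S586E 119 and 131 unstimulated and 183 and 205 depolarized. This summit ranked 14 to 17 of its whole list in the 4 S586A libraries, 63 to 426 with wild type and 359 to 1259 with S586E, which places it among the strongest summits of the genome in all 12. No library of the other 32 held it.

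The next sites repeated this order of genotypes. At chr10:128480778-128481074, 21.7 kb into the gene, the folds were 167, 132, 189 and 164 with wild type, 314, 334, 384 and 329 with S586A, and 89.1, 103, 130.3 and 142 with S586E, each given as 2 unstimulated and then 2 depolarized libraries. At chr10:128483102-128483406 they were, in the same order, 170.0, 109.6, 179 and 168, then 290.0, 306, 362 and 340.2, then 72.1, 88.8, 154 and 156. The S586A libraries were again the highest 4 at both, and the wild-type and S586E libraries overlapped.

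Toward the 3′ end of the group, chr10:128484006-128484533 had folds of 148, 92.9, 166 and 156 with wild type, 279, 283, 344 and 273 with S586A, and 70.6, 101, 125 and 137 with S586E. At chr10:128485483-128485764 the folds were 127, 79.1, 139.8 and 127, then 218, 220.3, 265 and 223, then 56.7, 69.4, 106 and 120.1. The site chr10:128482010-128482424 had 132, 92.9, 142 and 114, then 215, 227, 252 and 239.8, then 52.0, 59.8, 91.3 and 94.1. In all 3, the lowest library was an unstimulated S586E library.

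Nearer the 5′ end the folds were lower. At chr10:128474610-128474883, 15.6 kb into the gene, they were 93.7, 53.0, 84.5 and 82.0 with wild type, 149.7, 161, 184 and 178 with S586A, and 21.1, 48.1, 64.6 and 70.0 with S586E. At chr10:128469593-128469859, 10.6 kb into the gene, they were 78.3, 54.2, 77.8 and 81.7, then 147, 142, 166 and 160.5, then 28.8, 50.0, 69.3 and 73.2. These 8 sites had the highest mean rank scores of the 13, from 5.85 ± 1.59 to 10.6 ± 2.37 (SD, n = 12). The other 5 had median folds of 39.8 to 72.5 over the 12 libraries, and their lowest value was 16.5, in an unstimulated S586E library 3.84 kb into the gene.

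Between genotypes, the 4 S586A libraries had higher folds and better ranks than the 8 other add-back libraries at 13 of 13 sites. The wild-type and S586E ranges overlapped at 13 of 13 sites, and the wild-type mean was the higher one at all 13. The sites of a library rose and fell together, so these counts are not 13 separate results. The share of all sites with such an order of genotypes is not given here. The median fold over the 13 sites was 168 ± 15.7 with S586A, 78.6 ± 17.0 with wild type and 57.6 ± 16.7 with S586E (SD, n = 4 libraries each, both states). Without the S586E library of lowest background pileup, the S586E value was 64.3 ± 12.3 (SD, n = 3), the lowest fold at any of the 13 sites was 26.8 in place of 16.5, and the wild-type mean was still the higher one at 13 sites. The part of depth in the order of the genotypes was not tested. The fold of the summit just before the gene start did not follow this order: it was 38.0 ± 7.77, 39.8 ± 8.45 and 39.5 ± 5.88 in the same genotypes. The amount of construct in the cells is not given by these lists, and its part in the order of the genotypes was not tested.

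**Figure D2:**
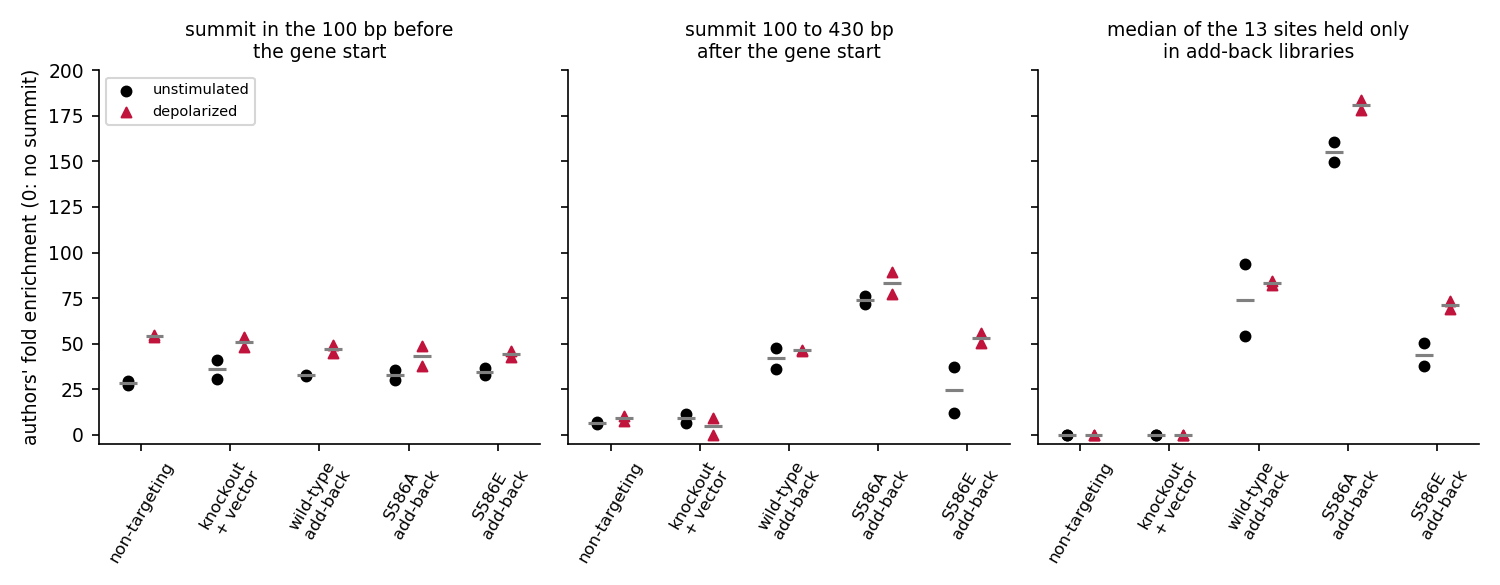
Authors' fold enrichment in the 20 DIV18 libraries (circles unstimulated, triangles depolarized, bars the mean of 2) at the summit just before the gene start, at the summit just after it, and as the median of the 13 add-back-only sites; 0 means no summit, or no site held. All genotypes overlap in the first panel, whereas S586A libraries are highest in the third, at 149.7 to 184.

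The profile along the gene was the same in shape in all add-back libraries, whatever the level. The strongest of the 13 sites was the same one in 12 of 12 libraries. Across the 13 sites, Spearman's rho of the folds between 2 libraries ran from 0.901 to 1 over the 66 pairs, with a median of 0.978. This is a correlation across sites, which are not independent replicates, and it is given without a test. Divided by the library's own median, the fold at the top site was 2.34 to 3.18, and at the first site, 3.84 kb into the gene, 0.406 to 0.573. Folds were higher toward the 3′ end (rho of 0.709 between position and median fold over 13 sites) and in wider intervals (rho of 0.549).

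**Figure D3:**
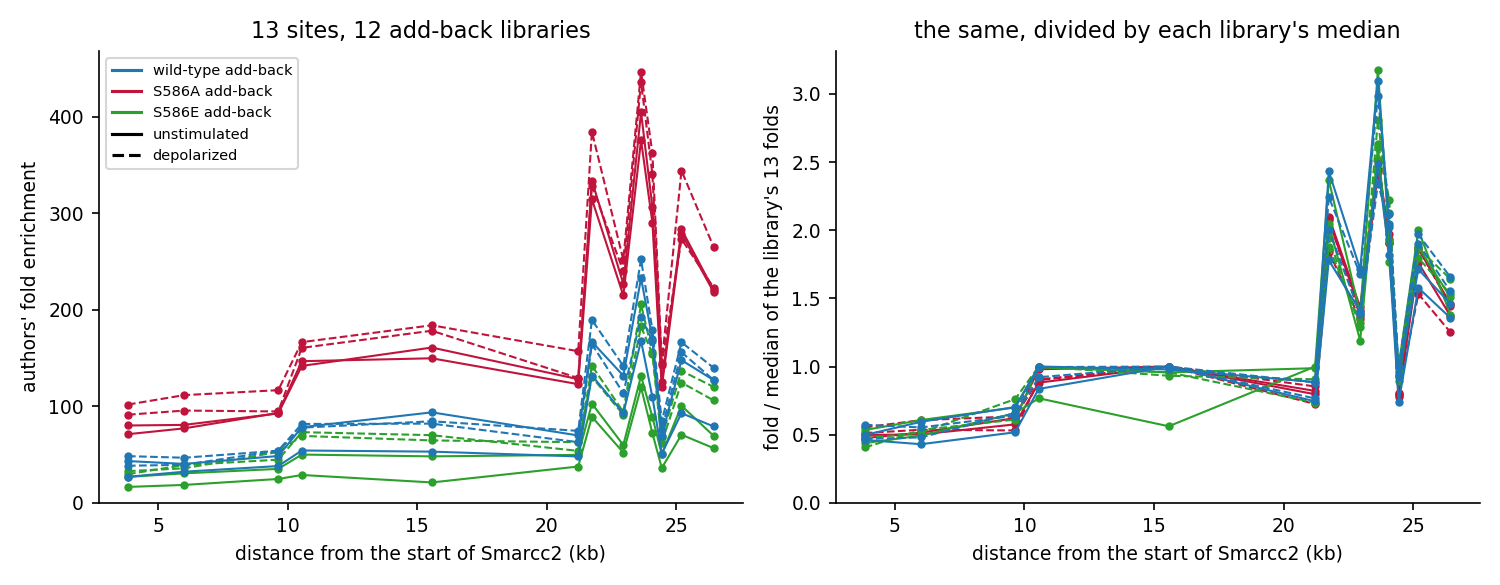
Fold enrichment at the 13 add-back-only sites against distance from the gene start in kb, for 12 add-back libraries coloured by genotype (solid unstimulated, dashed depolarized): as given by the authors (left) and divided by each library's median (right). After division the lines of the 3 genotypes lie on each other, with the top site at 2.34 to 3.18.

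The intervals had edges that agreed to the base between libraries. At 8 of the 13 sites the interval began at the same base in all 12 add-back lists, and at 5 of the 13 it ended at the same base in all 12. For example, the interval of the strongest site ran from 128482611 to 128483012 in 12 of 12 lists, and chr10:128483519-128483726 had both edges fixed in 12 of 12. The most common intervals at the 13 sites were 208 to 711 bp wide and covered 4389 bp, 19.2% of the stretch of 22856 bp from the first to the last.

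Such fixed edges were rare elsewhere. Over all autosomes, 13 interval starts were common to the 12 add-back lists, and 9 of these lay in Smarcc2. Of 11 common ends, 5 lay there. The shortest of these 12 lists had 186416 intervals. Among the 8 other DIV18 lists, 8 starts and 14 ends were common to all and 0 lay in Smarcc2. Among the 16 lists of the drug experiment the counts were 6 and 13, and among the 8 of the Arid2 experiment 42 and 48, again with 0 in the gene.

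Summit positions varied little at the 13 sites, although none was fixed to the base. The position of the best summit varied by a median of 11 bp over the 12 libraries at the 13 sites, and by at most 15 bp at 11 of them. At the other 2 it ranged over 245 and 294 bp. Over the 85915 sites held by all 12 add-back libraries the median range was 56 bp, and 2.17% stayed within 15 bp. Among the 11734 of these with a median rank at least as good as the weakest of the 13, the median was 30 bp. Of these, 10.8% stayed within 15 bp. They were not matched to the ranks of the 13 one by one, and the part of signal strength was not tested. At 45 flank sites the median was 50 bp, and 1 stayed within 15 bp.

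A wider class of sites in the gene had higher scores in all 12 add-back libraries than in any of the 8 others. It numbered 19 of 34 in the gene, 0 of 161 in the flanks and 68 over all sites, or 0.0253% of those held by at least 2 DIV18 libraries. The rule that chose the gene used this contrast, and nothing is read from these counts. By limma, 3.11% of all sites were called between libraries with and without add-back (1.78% higher, 1.33% lower), and 6.99% between the knockout with vector and the non-targeting guide (2.66% higher, 4.33% lower). The distance between the lowest add-back score and the highest other score was at least 1.495 at the 19 sites and at most 0.385 at any site outside the gene. No site of the gene lay below in all 12.

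In this class, 6 sites were also held by a library without add-back. The highest folds anywhere in the gene were at one of them, centred on 128487452: 249, 168, 266 and 251 with wild type, 394, 437, 514 and 459 with S586A, and 93.2, 171, 203 and 226 with S586E. There, 3 of the 8 other DIV18 libraries had 5.46, 8.65 and 4.76, and 2 of 24 DIV7 libraries held it. The site centred on 128461394, 2.21 kb into the gene, was at 25.2 to 116 with add-back and at 5.58 and 4.68 in the 2 other libraries that held it. Those at 128469298 and 128474223 were held by 1 other library each, the knockout with vector, depolarized, replicate 2, at 4.08 and 5.10. The sites at 128487978 and 128488941, near the 3′ end, were held by the 4 other depolarized libraries, the second also by 2 unstimulated ones.

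The remaining sites complete the gene. All 20 DIV18 libraries held 4 sites, those at 128459747, 128489616, 128489981 and 128490478 near the ends, and 2 of the 34 were held by all 44 libraries. Of the 34, 2 were held by 11 add-back libraries; these shared 1 interval, chr10:128463620-128464173, and one of them was also held by 7 of the 8 other DIV18 libraries, at folds of 4.84 to 13.3. Near the 5′ end, the site at 128460303 was held by 8 of 12 add-back libraries, 5 of the 8 others and 24 of 24 DIV7 libraries, and that at 128460955 by 2, 2 and 4. At 128459379, over the gene start, 12, 7 and 23 held it, although all 44 libraries had a summit just before the gene start. In the knockout with vector, unstimulated, replicate 2, that summit was at 128459128. In the non-targeting DIV7 library, unstimulated, replicate 1, it was at 128459116. Both lay nearer to the site centre at 128458880. In all, 29 sites were held by at least 2 of the 44 libraries and 5 by 1 library, and 5 were held by no add-back library.

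At the promoter a signal was present in every genotype. The site centred on 128458450 (ahead of the gene start, beside the tRNA gene n-TScga2 at 128458464 to 128458545 and the microRNA gene Mir8105) was held by all 44 libraries. Its folds were 38.7 and 48.0 unstimulated and 68.2 and 62.1 depolarized with the non-targeting guide, and 50.9, 44.3, 60.2 and 59.2 in the knockout with vector, unstimulated first. In the same order the folds were 39.6, 41.0, 68.2 and 60.2 with wild type, 43.97, 32.1, 51.2 and 45.6 with S586A, and 34.5, 45.0, 49.1 and 53.2 with S586E. The genotypes overlapped there. Just before the gene start, in the 100 bp that hold the repeats shown above, the best summit had folds of 27.1 to 54.9 in the 8 DIV18 libraries without add-back and 30.1 to 49.0 in the 12 with it, which overlap.

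From 100 to 430 bp after the gene start, the 12 add-back libraries lay above the 8 other DIV18 libraries, and wild type and S586E overlapped. The fold there was 5.89 to 10.5 in the 4 non-targeting libraries and 0 to 11.4 in the 4 knockout libraries with vector, where 1 library had no summit. It was 36.03 to 47.8 with wild type, 71.7 to 89.5 with S586A and 11.8 to 55.7 with S586E. The lowest add-back value, 11.8, was just above the highest of the other DIV18 libraries, 11.4, and came from the S586E library of lowest background pileup, without which the lowest was 36.03. The DIV7 libraries, with no construct, ran from 0 to 19.6. This split into summits before and after the start was chosen after seeing the values, because a site spacing of 300 bp merged both.

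In the full lists, the knockout libraries with empty vector had more summits than the non-targeting libraries in the middle of the gene. Between the first and the last add-back-only interval, the 4 non-targeting libraries had 1, 2, 1 and 1 summits in their full lists. The knockout with vector had 5 and 3 unstimulated and 13 and 15 depolarized, at folds of 2.38 to 6.12 in the depolarized ones. Of the depolarized ones, 2 and 5 lay inside the 13 intervals and 11 and 10 between them. In the 12 add-back libraries 17 summits lay inside the intervals in every library and 4 to 7 between them. The DIV7 libraries had 0 to 7 summits in the same stretch, with a median of 0. Over the gene without 1 kb at its ends, the genotypes without add-back overlapped in summits with a −log10 q of at least 5. The knockout with vector had 2 and 2 such summits unstimulated and 12 and 9 depolarized. The non-targeting libraries had 4 and 2, then 11 and 8.

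**Figure D4:**
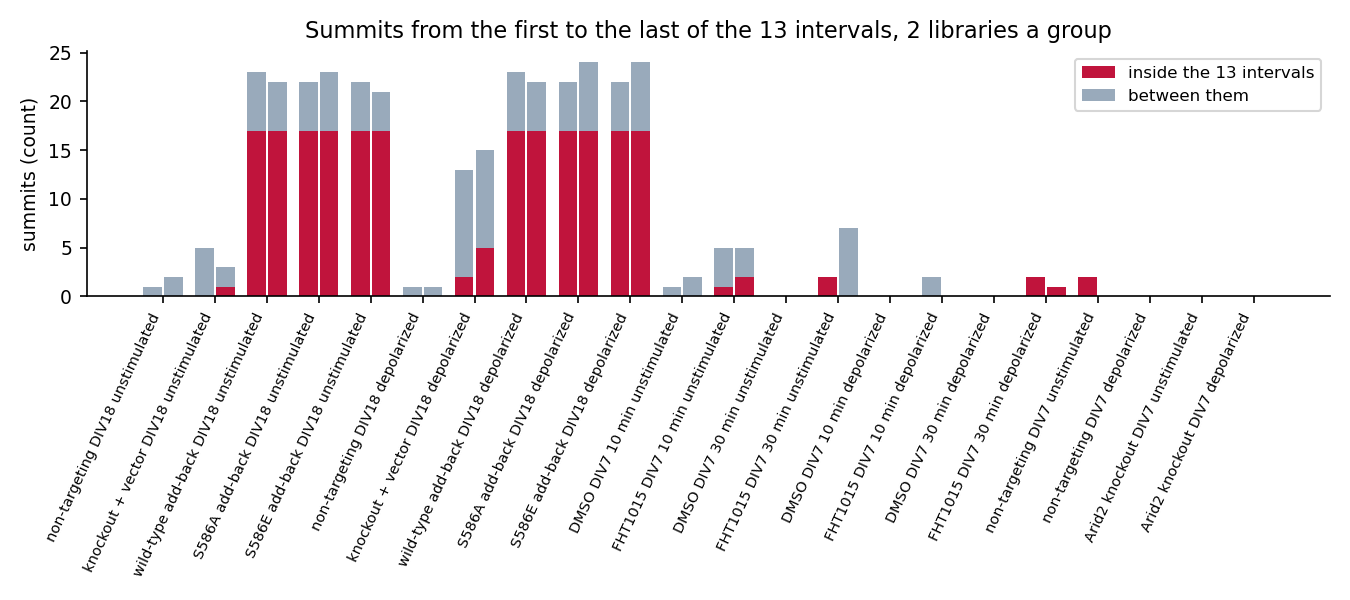
Number of summits in the full lists from the first to the last of the 13 add-back-only intervals, 1 bar per library and 2 libraries per group, split into those inside the intervals (red) and between them (grey). The 12 add-back libraries have 17 inside in every case; the depolarized knockout libraries with vector have 2 and 5 inside and 11 and 10 between.

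At the 13 sites themselves, the full lists without a rank limit showed no summit in any of the 52 pairs of a site and a non-targeting DIV18 library. The knockout with vector had 8 of 52, at 6 sites in 3 libraries, with folds of 2.16 to 3.74. The DIV7 libraries had 9 of 312, with folds of 2.25 to 3.31. All of these were below 12.9, the lowest fold of an add-back library at these sites in the full lists.

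Over the gene without 1 kb at its ends, intervals covered 30.3 ± 2.28% in the add-back libraries (n = 12), 8.71 ± 3.78% in the non-targeting and 15.6 ± 8.70% in the knockout libraries with vector (SD, n = 4 each). In the flanks the same libraries had 17.7 ± 1.74%, 17.6 ± 1.67% and 18.1 ± 0.908%, which overlap. The DIV7 libraries had 6.77 ± 3.62% in the gene and 17.1 ± 3.87% in the flanks (n = 24).

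None of the 13 protein-coding genes of the flanks had a site with the add-back-only pattern or with non-overlapping scores in either direction. They include Rnf41, a ubiquitin ligase gene that ends upstream of Smarcc2, Myl6 and Myl6b, myosin light chain genes just downstream, and Erbb3, a receptor of the ErbB family at the far end. Over the other 29 listed BAF genes, 0 of 1009 sites inside them had either pattern. By the rule for likeness, the sum of rank scores inside the gene was correlated over the 20 DIV18 libraries with that of 13597 genes. The highest Pearson r were those of Tnn (0.862), Tspan15 (0.761), Tgfbi (0.759), Adra1a (0.739) and LOC108168726 (0.735), given without a test because the 20 libraries fall into 2 groups that the choice of the gene fixed. The sum ran from 94.0 to 188 in the add-back libraries and from 0.873 to 8.87 in the others for Smarcc2, but from 7.67 to 10.2 and from 5.91 to 8.28 for Tnn. By the rank rule, no gene other than Smarcc2 had an add-back-only site.

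The response to 30 min of KCl was tested with limma over all sites, since depolarization did not enter the choice of the gene. In the 12 add-back libraries, 0 of the 13 add-back-only sites passed at an adjusted p under 0.05, against 19.4% of all 268562 sites. Their changes in rank score ran from −0.28 to 0.50, and the lowest adjusted p was 0.286. On the scale of log2(fold enrichment + 1), by contrast, 9 of the 13 passed, against 18.4% of all sites. Single libraries were left out on the rank scale only. These 9 calls were therefore not checked without the unstimulated S586E library of lowest background pileup. The median change of the 13 on that scale was 0.41, the adjusted p ran from 0.0046 to 0.146, and the 71453 sites held by all 20 libraries shifted by a median of 0.21. The 98 flank sites tested had a median of 0.44. Without the unstimulated wild-type add-back library of replicate 1, the site at 128483262 passed by rank (0.92 ± 0.15 SE, adjusted p = 0.0015), and without replicate 2 the one at 128482139 did in the other direction (−0.55 ± 0.18, adjusted p = 0.0475).

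The 3′ end of the gene did respond. The site centred on 128488478 was held by 10 of 10 depolarized and 0 of 10 unstimulated DIV18 libraries. This split depends on the rank limit. In the full lists, 11 add-back, 3 non-targeting and 2 knockout libraries with vector had a summit there, some of them unstimulated. Its folds were 8.98 and 9.88 in the depolarized non-targeting libraries, 12.97 and 13.3 in the knockout with vector, and 8.66 to 14.0 in the 6 add-back libraries. The change in rank score was 1.11 ± 0.13 (SE) with add-back (limma, adjusted p = 8.2e-05) and 1.23 ± 0.16 without (adjusted p = 0.00021). By rank score, depolarized and unstimulated libraries did not overlap there in any genotype, with all unstimulated scores at the floor of 0. With add-back the call was lost with the best 75000 summits (0.06, adjusted p = 0.29) and with centres 500 bp apart (0.37, adjusted p = 0.31).

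With add-back, 3 of the 16 other sites of the gene rose with KCl and 0 fell, beside 8.72% higher and 10.7% lower over all sites. The count was 1 with centres 500 bp apart, 2 with the best 75000 summits, 5 on the log2 fold scale, 6 with intervals (of 20) and 5 without the wild-type add-back library, unstimulated, replicate 1. Without the depolarized wild-type library of replicate 2, 3 rose and 1 fell. Besides 128488478 these were 128489981, which rose by 0.87 ± 0.18 (SE, adjusted p = 0.0037), and 128490478, which rose by 0.70 ± 0.14 (adjusted p = 0.0034). With site centres 500 bp apart the change at 128489981 was −0.12 and not called. At 128490478 the folds were 13.9 to 34.9 in the 6 unstimulated and 38.1 to 52.4 in the 6 depolarized add-back libraries, with no overlap. Over the flanks, 23 of 98 sites rose and 7 fell.

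Without add-back, 4 of the 16 sites rose and 0 fell, beside 17.1% of all sites called, 8.16% higher and 8.98% lower. The largest change was at 128488941, by 2.29 ± 0.30 (SE, adjusted p = 0.00025): the 4 depolarized libraries had folds of 20.1, 21.6, 23.4 and 22.1, while 2 of the 4 unstimulated ones held it, at 5.27 and 4.46. In the full lists, 4 of 4 non-targeting and 4 of 4 knockout libraries with vector had a summit there. The other 3 were 128488478, 128490478 (0.62 ± 0.17, adjusted p = 0.023) and 128487978 (0.78 ± 0.23, adjusted p = 0.0315). The call at 128487978 was lost without any 1 of 7 of the 8 libraries and that at 128490478 without any 1 of 5 (adjusted p of 0.0537 to 0.100 in these cases). In the flanks 20 of 98 sites rose and 9 fell.

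At 128488941 the add-back libraries were high in both states, at 38.1 to 169.5 unstimulated and 92.3 to 227 depolarized, and their change in rank score was 0.37 ± 0.24 (adjusted p = 0.32). The difference between the responses with and without add-back was −1.92 ± 0.38 there (limma, adjusted p = 0.083), beside 0.114% of all sites called for such a difference (0.0518% higher, 0.0618% lower). No site of the gene passed for it, and 2 of the 31 tested at the gene and its promoter had an unadjusted p under 0.05.

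**Figure D5:**
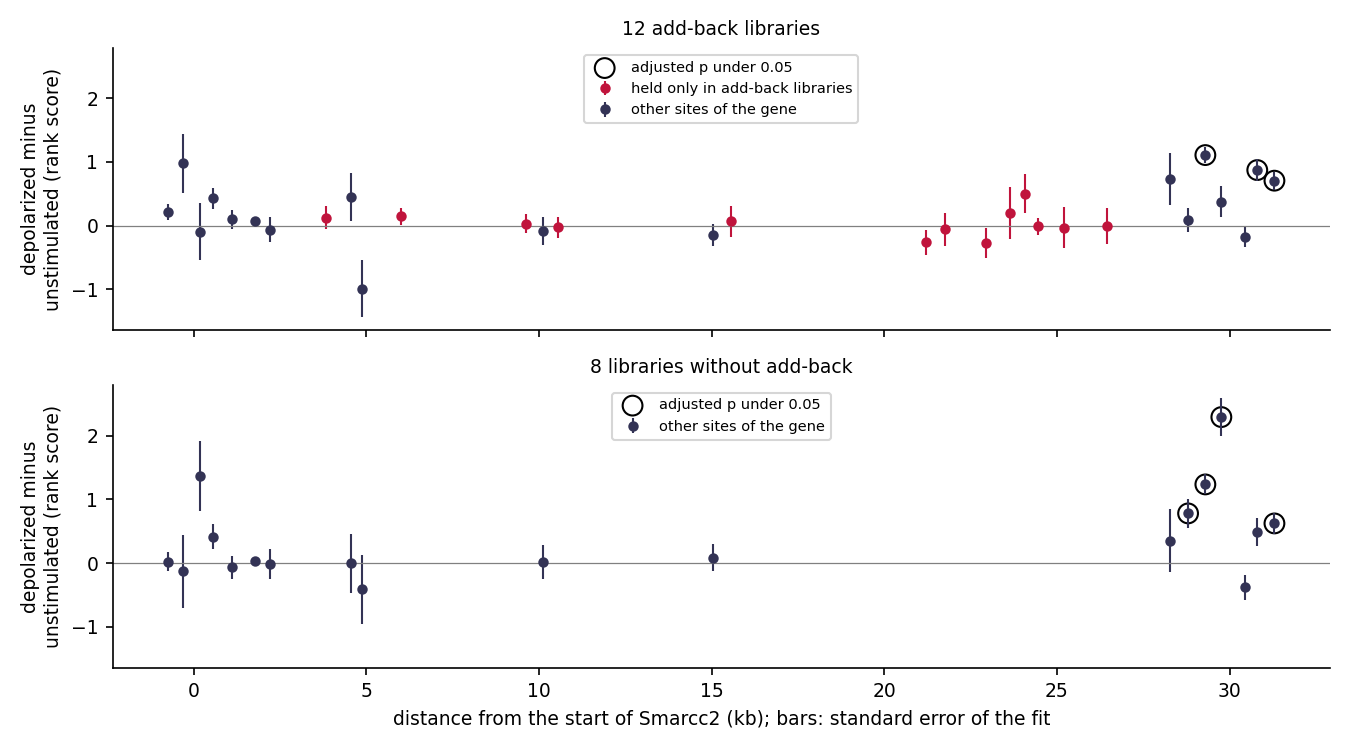
Change of rank score with KCl at the sites of Smarcc2 and just before it, against distance from the gene start in kb, in the 12 add-back libraries (top) and the 8 others (bottom); bars are the standard error of the fit, and rings mark an adjusted p under 0.05. The ringed sites lie within 3 kb of the 3′ end in both panels, and none of the 13 add-back-only sites (red) is ringed.

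Counted as 1 value per library, the 6 depolarized add-back libraries had 32.7 ± 1.75 summits in the gene without its ends, and the 6 unstimulated ones 29.7 ± 1.63 (SD, exact two-sided permutation test, p = 0.0238, adjusted over 2 tests 0.0238). Intervals covered 9344 ± 334 bp and 8507 ± 677 bp (exact permutation test, p = 0.0152, adjusted 0.0238). Without add-back, the summits in the gene numbered 6 and 6 unstimulated and 11 and 11 depolarized with the non-targeting guide, and 10 and 9 unstimulated and 27 and 24 depolarized in the knockout with vector. These rises were larger than that with add-back, and the difference was not tested. With a −log10 q of at least 5, the non-targeting counts were 4 and 2 unstimulated and 11 and 8 depolarized. Those of the knockout with vector were then 2 and 2, and 12 and 9. In the flanks the add-back counts were 103.7 ± 7.97 and 103.3 ± 14.5 summits (exact permutation test, p = 0.981). Within the stretch of the 13 intervals the counts were 22.8 ± 0.983 and 22.2 ± 0.753. The lists themselves held 294689 ± 9166 and 308655 ± 39562 summits.

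In the DIV7 neurons, which carried no Smarcc2 construct, 11 sites of the gene could be tested in the drug experiment. With 30 min of KCl in DMSO, 1 rose and 1 fell, beside 21.6% of all 241543 sites called (9.36% higher, 12.3% lower). The site at 128488941 rose by 0.73 ± 0.16 (limma, adjusted p = 0.0103): its folds were 9.83 and 9.21 depolarized, and neither unstimulated library held it. The call was lost without the depolarized library of replicate 1 (adjusted p = 0.0675). At 128459379, which merges the summits before and after the gene start, the score fell by 0.64 ± 0.20 (adjusted p = 0.0463), a call lost without any 1 of 3 of the 4 libraries. With KCl in the Arid2 experiment, limma called 0 of 8 sites (lowest adjusted p 0.359), against 0.358% of all 219524 sites. In that experiment 25742 of all sites had an unadjusted p under 0.05.

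Under FHT1015, 6 of the 11 sites of the gene rose and 0 fell. Of all 241543 sites 56.1% were called, 26.3% higher and 29.7% lower. In the flanks 47 of 106 sites rose and 9 fell, with a median change of 0.16, close to the 0.18 of the gene. Among those called in the gene, 128460955 and 128487978 were near the floor. Their mean scores were 0.10 and 0.18 with FHT1015, and 0.01 and 0 with DMSO. The largest change was at 128489616, near the 3′ end, by 0.78 ± 0.079 (SE, limma, adjusted p = 1.8e-05). The site ahead of the gene start at 128458450 rose by 0.30 ± 0.053 (adjusted p = 0.00071), with folds of 57.6 to 70.0 in the 8 DMSO and 68.7 to 91.0 in the 8 FHT1015 libraries, which overlapped by 1 library on each side. With the number of summits of each library as a covariate, 2 of the 11 sites passed. On the log2 fold scale 5 rose and 2 fell, with intervals 3 of 12 rose and 1 fell, and with the best 75000 summits 1 of 5 rose and 1 fell. The site at 128460955 rose by 0.09 ± 0.023 (SE, adjusted p = 0.0051) but fell by 1.77 with intervals in place of summits.

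Sites within 1 kb of the ends of the other BAF genes were read from the same fits. They are positions near these genes and do not measure their expression. With KCl at DIV18, 21 of 141 rose and 11 fell in the add-back libraries, and 19 rose and 8 fell without add-back, with median changes of 0.01 and 0.06 against −0.02 and −0.02 over all sites. Over all sites 8.72% rose and 10.7% fell with add-back, and 8.16% and 8.98% without. A site at Dpf1, a subunit of the neuronal form of the complex, rose in both (1.09 ± 0.12 and 0.97 ± 0.15, SE), while one at Smarcb1, a core subunit, fell in both (−1.41 ± 0.20 and −1.55 ± 0.24). One at Ss18l1, the neuronal subunit also known as CREST, fell by 1.36 ± 0.16 with add-back and by 1.33 ± 0.19 without. Under FHT1015, 70 of 142 rose and 10 fell, beside 26.3% higher, 29.7% lower and 56.1% called over all sites. The flanks of Smarcc2 leaned the same way, with 47 of 106 higher and 9 lower. For the BAF genes, counts with list length as a covariate or on the log2 fold scale are not given here. A site at Smarca4, an ATPase of the complex, rose by 3.07 ± 0.047. The named sites passed in limma's fit and were chosen after their values were seen.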

How the data were processed

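ATAC-seq peak lists of 44 libraries (22 groups of 2, 1 list per library) were used. Per the submitters' processing notes, reads were processed with Trim Galore, FastQC, Bowtie2, SAMtools, Picard, MACS2 and bedtools on mm10; versions, settings and filters are not given in the sources used here. The lists, as deposited, give a fold enrichment per summit, which is a ratio to a background level, and −log10 p-values and −log10 q-values from the authors' peak caller. Read depth was not given; list length (178672 to 389907 autosomal summits) and the background pileup, computed from the median step between the lowest distinct fold values as 1/step − 1 (0.942 to 8.39), describe it.

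Summits of the 19 autosomes were ranked by −log10 p within each library. Sites were built from the best summits, with centres at least 300 bp apart. The rank score was log2(178672 / rank), and 0 where no summit of that rank lay at the site. Sites held by at least 2 libraries of an experiment were tested with limma 3.58.1 (R 4.3.3, trended variance), with Benjamini-Hochberg adjustment over all sites and a threshold of 0.05. The fits were also run on simulated scores, drawn without the floor at 0 of the real ones. That run does not cover sites near the floor. Counts per library were compared by exact permutation over 924 arrangements. Scripts used Python 3.11.15, numpy 2.4.6, pandas 2.3.3, scipy 1.17.1 and matplotlib 3.10.9.

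The gene, the lists (30 BAF genes and markers of neurons, astrocytes, oligodendrocytes, microglia and vascular cells) and the rules were chosen with earlier results of these data known. Sites were named by a rule: every site of the gene held by at least 2 libraries is accounted for, values per library are given for the promoter site and for the 8 add-back-only sites with the highest mean score, and the 5 genes most like Smarcc2 by Pearson r are named. Gene positions and the promoter sequence came from RefSeq on GRCm38.p6. Replicate numbers were not used to pair the libraries in the main fits. The correlation of same-numbered deviations was weak but positive throughout at DIV18. It was 0.0163 to 0.145 over 45 pairs of groups (median 0.0788), and 12 pairs were over 0.1. In the drug experiment it was −0.0669 to 0.0721 (median 0.00392), and in the Arid2 experiment −0.00157 to 0.0138. The source of the weak correlation at DIV18 was not tested.

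Alternatives were intervals in place of summits, the best 75000 summits, centres 500 bp apart, sites held by at least 1 or 4 libraries, log2(fold enrichment + 1), list length as a covariate, a replicate block and leaving out each library. The split of the promoter summits, the difference between the KCl responses, the stretch between the outer intervals and the values without the add-back library of lowest background pileup were added after seeing the data.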

Additional observations from a re-analysis of the deposited data

How the results depend on the processing

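The count of add-back-only sites in Smarcc2 was 13 by the main rule, 18 with the best 75000 summits, 9 with centres 500 bp apart, 14 with a −log10 q of at least 5, 11 with intervals over the site centre and 7 with all summits, and 13 to 15 when 1 library was left out. Outside the gene there were 0 such sites by the first 3 of these rules, 3 with the −log10 q limit, 2 with intervals, 1 with all summits and 0 to 3 when 1 library was left out. None of the 13 passed for KCl by rank, and 0 to 1 did by rank when 1 library was left out. On the log2 fold scale 9 did, and leaving out a library was not tried there. The difference in summits between depolarized and unstimulated add-back libraries was 2.67 to 3.53 and that in covered length 626 to 973 bp when 1 library was left out.

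Over all sites, limma called 52118 for KCl with add-back, 46015 without, 52229 in DMSO, 135450 for FHT1015 and 786 in the Arid2 experiment. With the best 75000 summits, where fewer sites are tested, the first 4 counts were 29350, 26283, 29975 and 57048. List length as a covariate gave 40709 for FHT1015 and 0 for Arid2, where 15504 sites had an unadjusted p under 0.05. The Arid2 count was 1840 for sites held by at least 4 libraries, 316 for at least 1 and 138 on the log2 fold scale; the cause was not tested. Leaving out 1 library gave 40781 to 57699, 31222 to 48019, 28797 to 42557, 126134 to 134246 and 248 to 383. With the replicate number as a block the counts were 56065, 49499, 50562, 134537 and 804, and the same number of sites of the gene was called in each comparison.

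The share of higher calls was 44.9%, 47.6% and 43.3% for KCl with add-back, without and in DMSO. It was 66.2%, 64.5% and 62.0% on the log2 fold scale and 57.3%, 63.0% and 62.1% with intervals. For FHT1015 it was 47.0%, and 34.9% on the log2 fold scale. For Arid2 it was 85.2%, 63.7% with intervals and 74.8% for sites held by at least 4 libraries.

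Of 285 values for 15 named results under alternatives, 247 kept their direction and side of the threshold and 36 lost the call. Those reversed were 128489981 with centres 500 bp apart (−0.12) and 128460955 under FHT1015 with intervals (−1.77); the cause was not tested. List length and the lack of read depth limit what a missing summit means, and with 2 libraries per group a single library can decide a call.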
